A study of Mus musculus with 2 samples.

Results

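The genes described are 8 transcription factors that set the fate of granulocytes and other myeloid cells, Cebpe, Cebpb, Cebpd, Cebpa, Spi1, Gfi1, Irf8 and Runx1. They were taken by gene symbol from the 32285 genes listed in the deposited files, and all 8 were listed. Each was followed in every blood cell type and in neutrophils rich in the secondary granule transcripts Camp, Ngp and Ltf against the other neutrophils.

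The study asked how blood neutrophils differ in a mouse model of Alzheimer's disease. Single-cell RNA-seq was made from 2 libraries, WT (C57BL/6J mice) and APP/PS1, each pooled from 3 female mice 7 months old. APP/PS1 mice carry transgenes of mutant amyloid precursor protein (APP) and presenilin 1 (PS1), a widely used model of amyloid deposition, and WT mice carry neither. The promoter of the transgenes is not given in the sources used here, and the genotypes were taken as labelled. In both groups red cells of peripheral blood were lysed and neutrophils were enriched by removing other leukocytes with antibodies, so that the other cell types below are what this enrichment left behind. The samples were labelled as neutrophils, but these made up 5883 of 14564 kept cells of WT and 6990 of 15208 of APP/PS1 by their markers, not counting a cluster of 1701 and 2600 cells that had neutrophil genes but was led by platelet genes (Itga2b, Pf4, Ppbp). With 1 library per genotype there was no replicate error, no test was made and no p-value is given. All intervals below are exact at the 95% level. They hold the counting error alone and say nothing of the spread between mice or libraries.

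Granulocytes arise in the bone marrow from myeloid progenitors. Spi1 encodes PU.1, a factor that all myeloid cells need, and Runx1 is needed earlier, for the formation of blood stem cells. C/EBPα, from Cebpa, opens the granulocyte programme, and Gfi1 and Irf8 are a pair of opposed factors at the branch between granulocytes and monocytes, Gfi1 favouring the former and Irf8 the latter. C/EBPε, from Cebpe, acts at the step from promyelocyte to myelocyte and drives the genes of the secondary granules, among them Camp, Ngp and Ltf. C/EBPβ, from Cebpb, serves emergency granulopoiesis and the survival of Ly6C-low monocytes, and C/EBPδ, from Cebpd, is induced by inflammatory signals.

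In GENCODE M21 (GRCm38, mm10), all 8 were protein-coding genes. Cebpe lay at chr14:54710360-54712174 (minus strand), Cebpb at chr2:167688915-167690418 (plus strand), Cebpd at chr16:15887286-15891031 (plus strand) and Cebpa at chr7:35119293-35121928 (plus strand). Spi1 lay at chr2:91082390-91115756 (plus strand), Gfi1 at chr5:107716657-107726036 (minus strand), Irf8 at chr8:120736358-120756694 (plus strand) and Runx1 at chr16:92601466-92826149 (minus strand).

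C/EBP proteins share a recognition motif, and of the 3 granule genes that define the rich neutrophils, Ngp and Ltf carried it near their starts. The motif TTGCNNAA was searched on both strands in the 250 bases before each start in the RefSeq promoter table (GRCm38.p6), where 9.56% of 32851 promoters held it. Ngp, which encodes neutrophilic granule protein, held 2 matches, from base -138 to -131 and from base -11 to -4 counted from the RefSeq start. Ltf, which encodes lactoferrin, held 1 match, from base -75 to -68, and Camp, which encodes the antimicrobial peptide precursor cathelicidin, held none. The stretches of Ngp and Ltf that lie outside the gene as GENCODE draws it are shown because these are the genes that split the neutrophils. The capitals mark the C/EBP motif, and both stretches are printed on the plus strand. The match in Ltf lies on the minus strand, so it reads TTGGGCAA here. The match of Ngp from base -11 to -4, also on the minus strand, lies past the end of its stretch.
Ngp, chr9:110419558-110419746: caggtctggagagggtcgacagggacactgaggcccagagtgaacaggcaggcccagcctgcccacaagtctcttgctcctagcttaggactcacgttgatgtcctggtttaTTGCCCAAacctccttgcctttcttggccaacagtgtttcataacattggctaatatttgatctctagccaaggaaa
Ltf, chr9:111019042-111019270: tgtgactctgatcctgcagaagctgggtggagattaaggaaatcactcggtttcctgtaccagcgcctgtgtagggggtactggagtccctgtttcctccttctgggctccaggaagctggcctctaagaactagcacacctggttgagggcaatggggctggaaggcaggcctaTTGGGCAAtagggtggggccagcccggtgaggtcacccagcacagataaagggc
Among the factors, the table held starts of Cebpb, Cebpa, Gfi1, Irf8 and Runx1, of which 1 of the 2 starts of Gfi1 had a match, TTGCTGAA from base -143 to -136. The motif TGTGGT of RUNX proteins and the motif GAGGAAGT of PU.1 were in none of these promoters nor in those of Camp, Ngp and Ltf, against 14% and 2.44% of all promoters. A match of letters does not show that a factor binds there.

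The WT library held 17123 cells and 92458623 UMIs (unique molecular identifiers, 1 per captured transcript) and the APP/PS1 library 17645 cells and 84870864 UMIs, and 83 cell barcodes occurred in both. After filtering, 14564 and 15208 cells were kept and named by marker genes. S100a9, an abundant neutrophil transcript that lymphocytes should lack, gave a measure of neutrophil RNA in them, be it free RNA or from doublets (droplets that held several cells), which were not separated. It was found in B cells at 7.11% (WT) and 4.26% (APP/PS1) of its level in neutrophils not rich in Camp, Ngp and Ltf, in NK cells at 10.7% and 11.8%, and in plasma cells at 50% and 33%. Called doublets were 11.2% and 5.54% of the B cells, 9.65% and 12.3% of the NK cells and 36.2% and 23.3% of the plasma cells. A factor at a similar share of its neutrophil level in these cells was not read as expressed there. The cluster led by platelet genes, called the platelet-led cluster, had S100a9 at 93.1% and 97.1% of this level and was kept apart.

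Neutrophils numbered 5883 in WT and 6990 in APP/PS1. A neutrophil was called rich when Camp, Ngp and Ltf together made up at least 20 of every 10000 UMIs. Rich cells numbered 84 in WT (1.43% of neutrophils, interval 1.14 to 1.76%) and 167 in APP/PS1 (2.39%, 2.04 to 2.77%). The class is a range of a continuous score. Near the limit lay 20 and 28 cells from 10 to 20 per 10000 and 14 and 20 from 20 to 50. A limit of 10 would give 104 and 195 rich cells. In WT 92.1% and in APP/PS1 89.3% of the other neutrophils had no UMI of the 3 genes. Rich cells had more UMIs, with medians of 6360 and 6700 against 2514 and 2622 per cell. S100a8, S100a9, Camp, Ngp, Ltf, Lcn2, haemoglobin and mitochondrial transcripts took 38.9% and 37.3% of the UMIs of rich cells and 16.5% and 13.4% of the others, which by itself moves all remaining genes by -0.45 (WT) and -0.47 (APP/PS1) on the log2 scale. Over all genes with at least 50 UMIs in the 2 classes and at least 1 in each, the median log2 ratio of rich over other was -0.27 in WT and -0.29 in APP/PS1, and the ratios of the factors stand beside this shift.

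Cebpe, the factor of the secondary granule genes, was the 1 factor with a log2 ratio above 1 in the rich neutrophils. In WT it stood at 219 CPM (UMIs per 1000000 UMIs, interval 182 to 261, 122 UMIs) in rich and at 15.7 CPM (13.8 to 17.7, 254 UMIs) in other neutrophils. In APP/PS1 it stood at 216 CPM (190 to 245, 240 UMIs) in rich and at 20.7 CPM (18.8 to 22.8, 415 UMIs) in other neutrophils. The log2 ratio was 3.81 (3.48 to 4.12) in WT and 3.38 (3.15 to 3.62) in APP/PS1, which is 14.0-fold and 10.4-fold. The intervals of the level in rich cells overlapped between the libraries. Per cell, rich neutrophils held 1.45 and 1.44 UMIs of Cebpe and the others 0.0438 and 0.0608.

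Cebpb and Cebpd, the C/EBP factors of emergency and inflammatory responses, were lower in the rich neutrophils. Cebpb stood at 1185 CPM (1096 to 1279) in rich and 3784 CPM (3755 to 3815) in other neutrophils of WT, and at 788 CPM (736 to 842) and 3694 CPM (3667 to 3720) in APP/PS1. Its log2 ratio was -1.68 (-1.79 to -1.57) in WT and -2.23 (-2.33 to -2.13) in APP/PS1, so that other neutrophils held 3.19-fold and 4.69-fold more. Cebpd stood at 255 CPM (214 to 300.0) in rich and 632 CPM (620.2 to 645) in other neutrophils of WT, and at 325 CPM (292 to 360.2) and 828 CPM (815 to 840.3) in APP/PS1. Its log2 ratio was -1.31 (-1.56 to -1.07) and -1.35 (-1.503 to -1.20). With the abundant genes left out of the totals these became -0.86 and -0.88, which no longer pass a log2 ratio of 1 in size. Per cell, Cebpb had 7.87 and 5.24 UMIs in rich against 10.6 and 10.9 in other neutrophils, and Cebpd 1.69 and 2.16 against 1.77 and 2.43.

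Spi1 was lower by a little less than this limit. It stood at 599 CPM (536 to 666) in rich and 1141 CPM (1125 to 1158) in other neutrophils of WT, and at 586 CPM (542 to 633) and 1075 CPM (1061 to 1090) in APP/PS1. The log2 ratios were -0.93 (-1.09 to -0.77) and -0.88 (-0.99 to -0.76), and without the abundant genes -0.48 and -0.41. In WT the log2 ratio passed the limit under 4 of 14 alternatives, at -1.01 and -1.03 with the class limit at 50 and 100 per 10000, -1.03 thinned and -1.03 in cells of 5000 to 10000 UMIs. Per cell, where rich neutrophils have more UMIs in all, the order turned, with 3.98 and 3.90 UMIs in rich and 3.19 and 3.16 UMIs in other neutrophils. Runx1 stood at 35.9 CPM (21.9 to 55.4) in rich and 64.6 CPM (60.7 to 68.6) in other neutrophils of WT, and at 43.2 CPM (31.9 to 57.3) and 60.8 CPM (57.4 to 64.3) in APP/PS1. Its log2 ratios were -0.85 (-1.57 to -0.21) and -0.49 (-0.94 to -0.08), and without the abundant genes -0.40 and -0.03. In WT cells of 5000 to 10000 UMIs it was -1.22, past the limit. Per cell the order turned for Runx1 too, with 0.238 and 0.287 UMIs in rich and 0.181 and 0.179 UMIs in other neutrophils.

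The remaining 3 factors were scarce in all neutrophils. Cebpa, the factor of early granulopoiesis, had 4 and 3 UMIs in the rich cells of WT and APP/PS1. Its levels were 7.17 CPM (1.95 to 18.4) in rich against 6.78 CPM (5.57 to 8.17) in other neutrophils of WT, and 2.70 CPM (0.557 to 7.89) against 7.93 CPM (6.74 to 9.26) in APP/PS1. The log2 ratios, 0.08 (-1.82 to 1.48) and -1.55 (-3.85 to 0.02), had intervals that held 0. Irf8, the monocyte factor, had 2 and 3 UMIs in rich cells, at 3.59 CPM (0.434 to 12.95) and 2.70 CPM (0.557 to 7.89), against 5.24 CPM (4.18 to 6.48) and 4.54 CPM (3.65 to 5.57) in other neutrophils, with log2 ratios of -0.55 (-3.62 to 1.35) and -0.75 (-3.05 to 0.84). Gfi1 had 0 UMIs in the rich cells of both libraries, which allows up to 5.38 CPM (WT) and 2.70 CPM (APP/PS1), and 10 and 9 UMIs in the other neutrophils (0.616 and 0.449 CPM). No ratio is given for it, since the limit in rich cells lies above the level in the others.

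**Figure D1:**
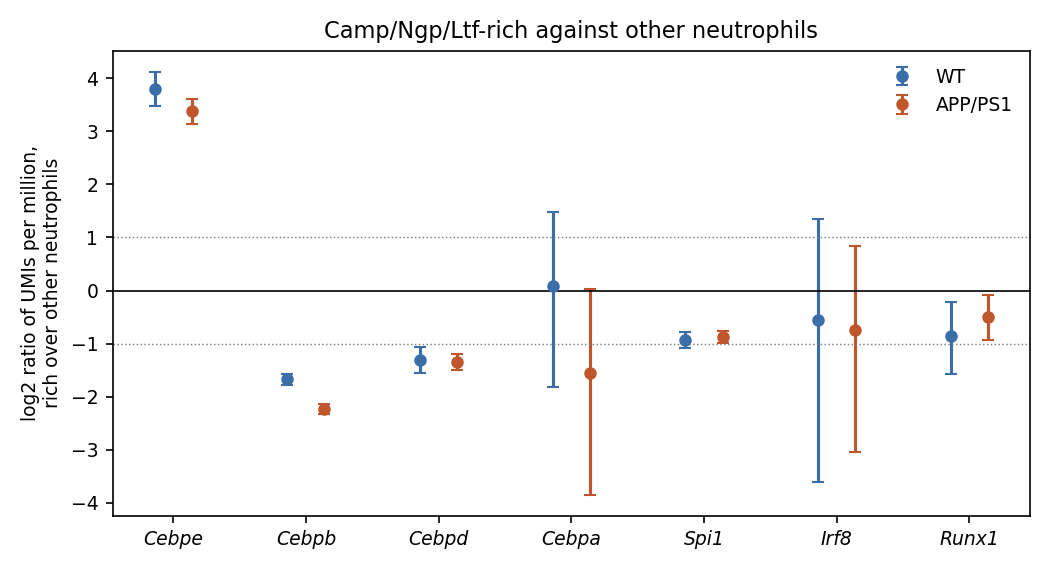
Log2 ratio of CPM, rich over other neutrophils (y axis), for 7 factors (x axis) in WT (blue) and APP/PS1 (orange), with exact 95% counting intervals as bars and dotted lines at the limits of 1 and -1. Cebpe sits at 3.81 and 3.38, Cebpb and Cebpd lie below -1, and the bars of Cebpa and Irf8 cross 0.

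Log2 ratios past 1 in size were common among all genes. The share of genes with ratios as large as those of Cebpe or Cebpb was not counted. Of the 8 factors, 7 had at least 50 UMIs in the 2 classes together (Gfi1 did not), and a log2 ratio above 1 was reached by 1 of them (Cebpe) in each library, beside 9.34% of 7492 genes in WT and 9.69% of 7977 genes in APP/PS1. A ratio below -1 was reached by 2 in WT (Cebpb, Cebpd) and 3 in APP/PS1 (Cebpb, Cebpd, Cebpa), beside 25.7% and 23.2% of genes. Cebpa in APP/PS1 rests on 3 UMIs in rich cells. The shares below -1 also count genes with no UMI in rich cells. Of the genes past the UMI limit, 7180 in WT and 7819 in APP/PS1 had a UMI in each class. Genes below -1 numbered 1927 of 7492 and 1854 of 7977, so the shares hold some genes absent from rich cells but most had a UMI there. With at least 200 UMIs the shares below -1 changed by a smaller fold than the WT share above 1. Cebpb itself had 661 and 875 UMIs in rich cells.

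Within the rich neutrophils Cebpe was higher where the granule transcripts, which the rule used, were higher. In neutrophils with no UMI of Camp, Ngp or Ltf it stood at 16.0 CPM (14.0 to 18.2) in WT and 20.7 CPM (18.6 to 22.9) in APP/PS1. Just outside the limit, from 5 to 20 per 10000, it stood at 11.9 CPM (3.24 to 30.5) and 26.2 CPM (12.6 to 48.3), and just inside, from 20 to 100, at 32.7 CPM (6.74 to 95.5, 17 cells) and 55.4 CPM (26.6 to 102, 36 cells). From 100 to 500 it reached 112 CPM (67.3 to 175) and 110 CPM (78.8 to 149), and at 500 or more 338 CPM (275 to 411) and 339 CPM (293 to 391). The highest step held 41 and 75 cells with 100 and 189 Cebpe UMIs. Cebpb ran the other way, from 3818 CPM (3786 to 3850) and 3719 CPM (3690 to 3747) with no granule UMI to 672 CPM (582 to 772) and 447 CPM (393 to 506) in the highest step. Cebpd went from 642 and 832 CPM to 216 and 287 CPM, and Spi1 from 1148 and 1077 CPM to 463 and 502 CPM. These levels were not corrected for the abundant genes, which include the granule genes that order the steps. Median UMIs per cell rose from 2488 (WT) and 2590 (APP/PS1) in the first step to 7020 and 7671 in the last. UMIs per cell of the factors were not computed by step, so a lower CPM there need not mean fewer UMIs per cell.

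**Figure D2:**
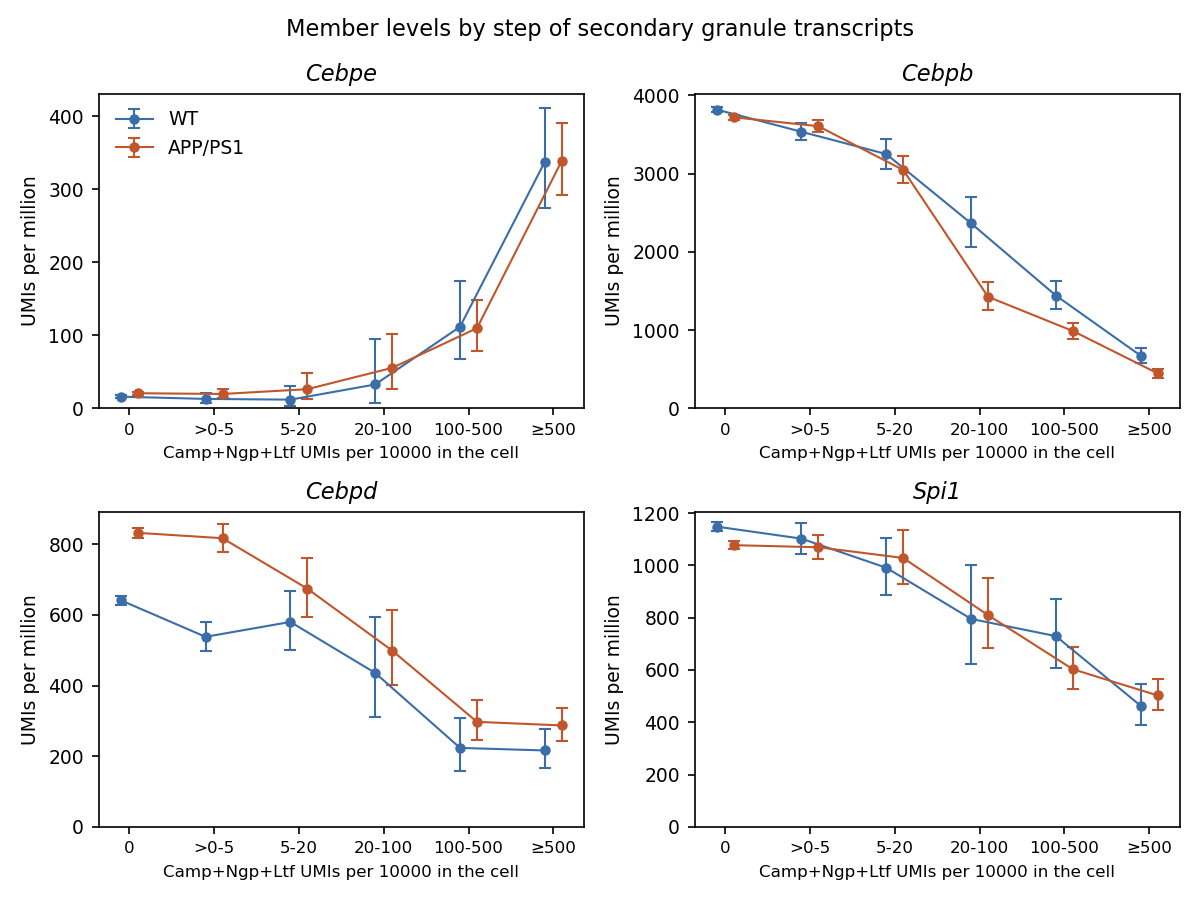
CPM of Cebpe, Cebpb, Cebpd and Spi1 (y axes from 0) in neutrophils grouped by their Camp, Ngp and Ltf UMIs per 10000 (x axis), in WT (blue) and APP/PS1 (orange), with exact 95% counting intervals as bars. Cebpe stays between 11.9 and 26.2 CPM up to 20 per 10000 and reaches 338 and 339 CPM in the last step, while the other 3 are at their lowest there.

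By cells, Cebpe was seen in 57.1% of rich neutrophils of WT and 58.1% of APP/PS1 at full depth. With each cell thinned to 1000 UMIs it was seen in 19.0% (11.3 to 29.1%) and 19.2% (13.5 to 26.0%) of rich cells, in 1.48% (1.19 to 1.83%) and 2.10% (1.77 to 2.46%) of other neutrophils, and in 0 of 303 and 0 of 307 B cells, which lack this factor (up to 0.99% and 0.977%). Cebpb was seen in 63.1% and 43.7% of thinned rich cells and in 94.7% and 92.9% of the others, and Spi1 in 40.5% and 53.9% against 67.6% and 64.3%. Thinning left out 0 WT neutrophils and 2 APP/PS1 neutrophils that had under 1000 UMIs. Gfi1 was seen in 0 of 84 and 0 of 167 rich cells, which allows shares up to 3.57% and 1.8% (exact upper bounds 4.3% and 2.18%).

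The rest of the granulocyte programme was described with lists of related genes, which were chosen with results of these data known. Beside each count stand the shares of all genes, 9.34% (WT) and 9.69% (APP/PS1) above 1 and 25.7% and 23.2% below -1. Of 18 other genes listed as secondary granule genes, all passed the UMI limit and 15 were above a log2 ratio of 1 in each library, with medians of 2.62 and 3.15. Adpgk, Itgb2l, Cd177, Lcn2, Serpinb1a and Olfm4 of this list also led the cluster of Camp, Ngp and Ltf in these data. The count is thus a description of the class and gives no independent support. Orm1, an acute phase protein, had log2 ratios of 7.39 (6.53 to 8.37) and 9.26 (7.35 to 12.3, with few UMIs in other neutrophils) and Chil3, a chitinase-like protein, of 7.11 and 6.62, while Cyba, a subunit of the NADPH oxidase, had 0.17 and 0.06 and haptoglobin (Hp) -0.44 and -0.64. Orm1, at 134 against 0.801 CPM in WT and 61.2 against 0.0997 CPM in APP/PS1, passed the UMI limit only through the rich cells. Of 10 primary granule and promyelocyte genes, 4 passed the UMI limit, none was above 1, and the proteases Prtn3 and Prss57 were below -1 in both, with medians of -1.13 and -1.15. Prtn3 stood at 1.79 CPM in rich against 4.37 CPM in other neutrophils of WT, and at 0 against 3.04 CPM in APP/PS1. Its place below -1 thus rests on few or no UMIs in rich cells. Prss57 had -1.39 (-4.44 to 0.49) and -1.996 (-4.29 to -0.43), Calr -0.98 and -0.30, and Ctsc -0.70 and 0.31. Myeloperoxidase (Mpo), neutrophil elastase (Elane) and cathepsin G (Ctsg) had 0 UMIs in the rich cells of both libraries. This allows up to 5.38 CPM (WT) and 2.70 CPM (APP/PS1). In other neutrophils they stood at 0.123 CPM or less, so these zeros do not separate the classes. Ms4a3, also under the UMI limit, stood at 7.17 CPM in rich against 0 CPM in other neutrophils of WT, and at 0.9 against 0.0499 CPM in APP/PS1.

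Of 16 genes of late neutrophils, 12 were below a log2 ratio of -1 in both libraries and none was above 1, with medians of -1.72 and -1.63. Il1b, an inflammatory cytokine, had -3.42 and -3.45 and the interferon-induced Ifitm1 -3.27 and -2.80, while gelatinase B (Mmp9) had 0.54 and 0.81 and Retnlg 0.40 and 0.89. Of 16 cell division genes, 6 passed the UMI limit, none was above 1, and 3 (Mki67, Tuba1b, Tubb5) were below -1 in WT and none in APP/PS1, with medians of -0.74 and -0.37. Tubb5, a tubulin, had -1.80 (-4.86 to 0.07) in WT, where its interval held 0, and the histone H2afz had 0.94 and 0.81. Of 11 growth factor receptors and their signalling genes, 9 passed the UMI limit, none was above 1, and 6 and 7 were below -1, with medians of -1.33 and -1.85. Csf3r, the receptor of the granulocyte growth factor G-CSF, had -2.54 and -2.32, and Socs3, which damps its signal, -3.25 and -3.31.

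No other factor of blood cell fate that passed the UMI limit was above a log2 ratio of 1 in rich neutrophils. Of all genes, 9.34% (WT) and 9.69% (APP/PS1) were above 1, and 25.7% and 23.2% were below -1. With few factors past the UMI limit, the absence of others above 1 does not by itself set Cebpe apart. Of 12 relatives and partners of the C/EBP proteins, 9 passed the UMI limit, none was above 1, and 3 in WT (Ddit3, Id2, Batf) and 2 in APP/PS1 (Ddit3, Batf) were below -1, with medians of -0.49 and -0.39. Ddit3, a C/EBP relative induced by stress, had -2.37 and -2.44, Batf -1.502 and -2.72, Cebpz -0.11 and -0.05, and Cbfb, the partner of Runx1, -0.27 and 0.54. Of 28 other haematopoietic fate factors, 11 passed the UMI limit in each library, none was above 1, and 7 were below -1 in each, with medians of -1.31 and -1.18. Zeb2 had -1.90 and -2.40, Irf5 -2.43 and -2.45, Ikzf1 0.44 and 0.50, and Lmo2 0.80 and 0.88.

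Among marker lists of 11 other cell types, 9 had medians of 0 UMIs per 10000 over cells in both classes and both libraries, and the other 2 were those of monocytes and erythroid cells. The 12 monocyte markers summed to 8874 and 10090 CPM in rich against 3878 and 3629 CPM in other neutrophils, mostly from Lyz2 (7320 and 8579 CPM in rich), which is also in the secondary granule list, and Ly6c2 (1301 and 1279 CPM), while Csf1r, Cx3cr1 and Fn1 were lower in rich than in other neutrophils of both libraries. Erythroid transcripts ran opposite ways, with the 7 erythroid markers at 4535 against 1706 CPM in WT and 553 against 1152 CPM in APP/PS1. The 8 T cell markers summed to 17.9 against 12.01 CPM in WT and 168 against 53.0 CPM in APP/PS1, the 5 plasma cell markers to 50.2 against 111 CPM and 278 against 99.9 CPM, and the 6 NK cell markers to 10.8 against 17.3 CPM and 94.5 against 25.9 CPM. The 7 progenitor markers summed to 12.6 against 7.27 CPM and 12.6 against 4.34 CPM. Of these, Kit (3.59 against 2.53 CPM and 11.7 against 0.898 CPM) and Ms4a3 (7.17 against 0 CPM and 0.9 against 0.0499 CPM) were higher in rich cells. Prtn3 (1.79 against 4.37 CPM and 0 against 3.04 CPM) was lower. Cd34, Mpo, Elane and Ctsg were at 0 in the rich cells of both libraries, and at 0.2 CPM or less in other neutrophils. With every neutrophil left out that had a UMI of 57 markers of other types, 42 and 77 rich cells were left, and in these of WT the log2 ratio was 3.23 for Cebpe and -1.54 for Cebpb. The 57 include the 7 progenitor markers, so rich cells with a UMI of Kit or Ms4a3 were left out too.

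Across all cell types, each factor had its own order. Cebpe was highest in rich neutrophils in both libraries, and after them stood the other neutrophils and the platelet-led cluster (20.3 CPM in WT, 19.4 CPM in APP/PS1), whose intervals overlapped. Classical monocytes had 5.74 CPM (4.74 to 6.89) and 5.44 CPM (4.25 to 6.86), and nonclassical monocytes 2.79 CPM (2.01 to 3.79) and 5.15 CPM (3.798 to 6.83). For each 10000 UMIs of S100a9, classical monocytes had 9.24 and 11.7 UMIs of Cebpe, above the 1.66 and 2.62 of other neutrophils, while NK, T and B cells, with 1 to 7 UMIs each, had between 1.44 and 3.60. Erythroid cells had 2.06 and 5.04 CPM, plasma cells 10.4 and 12.7 CPM, and basophils 0 UMIs, which allows up to 7.89 and 13.8 CPM.

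Cebpb was highest in nonclassical monocytes, at 3992 CPM (3960 to 4025) in WT and 4153 CPM (4112 to 4195) in APP/PS1. Other neutrophils followed, then the platelet-led cluster (3657 and 3438 CPM), plasma cells (2271 and 2497 CPM) and classical monocytes (2270 and 2227 CPM). Basophils had 1714 and 1361 CPM and erythroid cells 1199 and 1553 CPM. In WT the erythroid cells overlapped the rich neutrophils (1185 CPM), while in APP/PS1 basophils and erythroid cells both stood above the rich neutrophils (788 CPM). T cells had 676 and 617 CPM, NK cells 476 and 538 CPM and B cells 483 and 335 CPM. For each 10000 UMIs of S100a9, Cebpb had 473 and 578 UMIs in NK cells and 482 and 958 in plasma cells, beside 401 and 467 in other neutrophils, so that in NK cells and in plasma cells of WT it was not read as expressed. Plasma and erythroid cells held 36.2% and 44.6% called doublets in WT and 23.3% and 57.1% in APP/PS1, and their part in these levels was not tested.

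Cebpd was highest in other neutrophils, then in the platelet-led cluster (617 and 791 CPM), above classical monocytes (138 and 170 CPM) and nonclassical monocytes (105 and 135 CPM). The rich neutrophils and plasma cells (319 and 409 CPM) stood between them with overlapping intervals. Basophils had 129 and 143 CPM, erythroid cells 135 and 225 CPM, NK cells 67.7 and 111 CPM, T cells 51.6 and 68.4 CPM and B cells 59.1 and 39.9 CPM. For each 10000 UMIs of S100a9, Cebpd had 67.0 and 105 UMIs in other neutrophils, and 67.3 and 119 in NK cells, 78.3 and 94.3 in T cells and 88.1 and 119 in B cells, so in lymphocytes its ratio to S100a9 was near that of neutrophils.

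Spi1 was highest in other neutrophils and the platelet-led cluster (1124 and 1017 CPM), followed by nonclassical monocytes at 987 CPM (971 to 1003) and 900.2 CPM (881 to 920). Classical monocytes (638 and 606 CPM) did not differ from rich neutrophils beyond their intervals. Plasma cells had 537 and 615 CPM, basophils 439 and 331 CPM and erythroid cells 361 and 400 CPM. B cells had 196 and 153 CPM, T cells 176 and 147 CPM and NK cells 123 and 145 CPM. For each 10000 UMIs of S100a9, Spi1 had 122 and 156 UMIs in NK cells and 114 and 236 in plasma cells, beside 121 and 136 in other neutrophils, so that in NK cells and in plasma cells of WT it was not read as expressed. T cells had 267 and 203 and B cells 292 and 455.

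Cebpa was highest in basophils and then in classical monocytes. Basophils had 192 CPM (151 to 241, 73 cells) in WT and 212 CPM (155 to 282, 43 cells) in APP/PS1, classical monocytes 60.5 CPM (57.1 to 64.0) and 64.2 CPM (59.9 to 68.7), and nonclassical monocytes 18.8 and 19.1 CPM. The other groups had between 1.73 and 10.8 CPM. Runx1 was also highest in basophils, at 387 CPM (327 to 454) and 386 CPM (308 to 478), then in NK cells at 233 and 205 CPM. Classical monocytes (163 and 136 CPM), nonclassical monocytes (155 and 131 CPM) and T cells (141 and 122 CPM) overlapped each other. B cells had 73.8 and 73.8 CPM, the platelet-led cluster 80.4 and 63.8 CPM, plasma cells 41.5 and 74.2 CPM and erythroid cells 44.3 and 36.3 CPM.

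Among the named groups Irf8 was highest in NK cells, at 1569 CPM (1510 to 1630) in WT and 1184 CPM (1145 to 1225) in APP/PS1. Dendritic cell markers were listed but no cluster was named by them. Any dendritic cells thus stayed within the other groups, and their part in these levels was not tested. Classical monocytes had 230.3 CPM (224 to 237) and 270 CPM (261 to 279), nonclassical monocytes 154 and 148 CPM and B cells, which use Irf8 in their own development, 155 and 126 CPM. Neutrophils of all classes were between 2.70 and 5.24 CPM, with intervals far below those of classical monocytes. Plasma cells had 51.9 and 119 CPM, erythroid cells 29.4 and 30.2 CPM and basophils 15.8 CPM and 0 UMIs. Gfi1 was seen mainly in NK cells, at 11.4 CPM (6.86 to 17.8, 19 UMIs) and 17.7 CPM (13.2 to 23.3, 51 UMIs), and in T cells, at 7.10 and 8.71 CPM. In every other group it had at most 10 UMIs, and it was at 0 in the plasma cells of both libraries. Irf8 and Gfi1 were thus both higher in NK cells than in any neutrophil class, and their intervals did not overlap those of the other neutrophils.

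**Figure D3:**
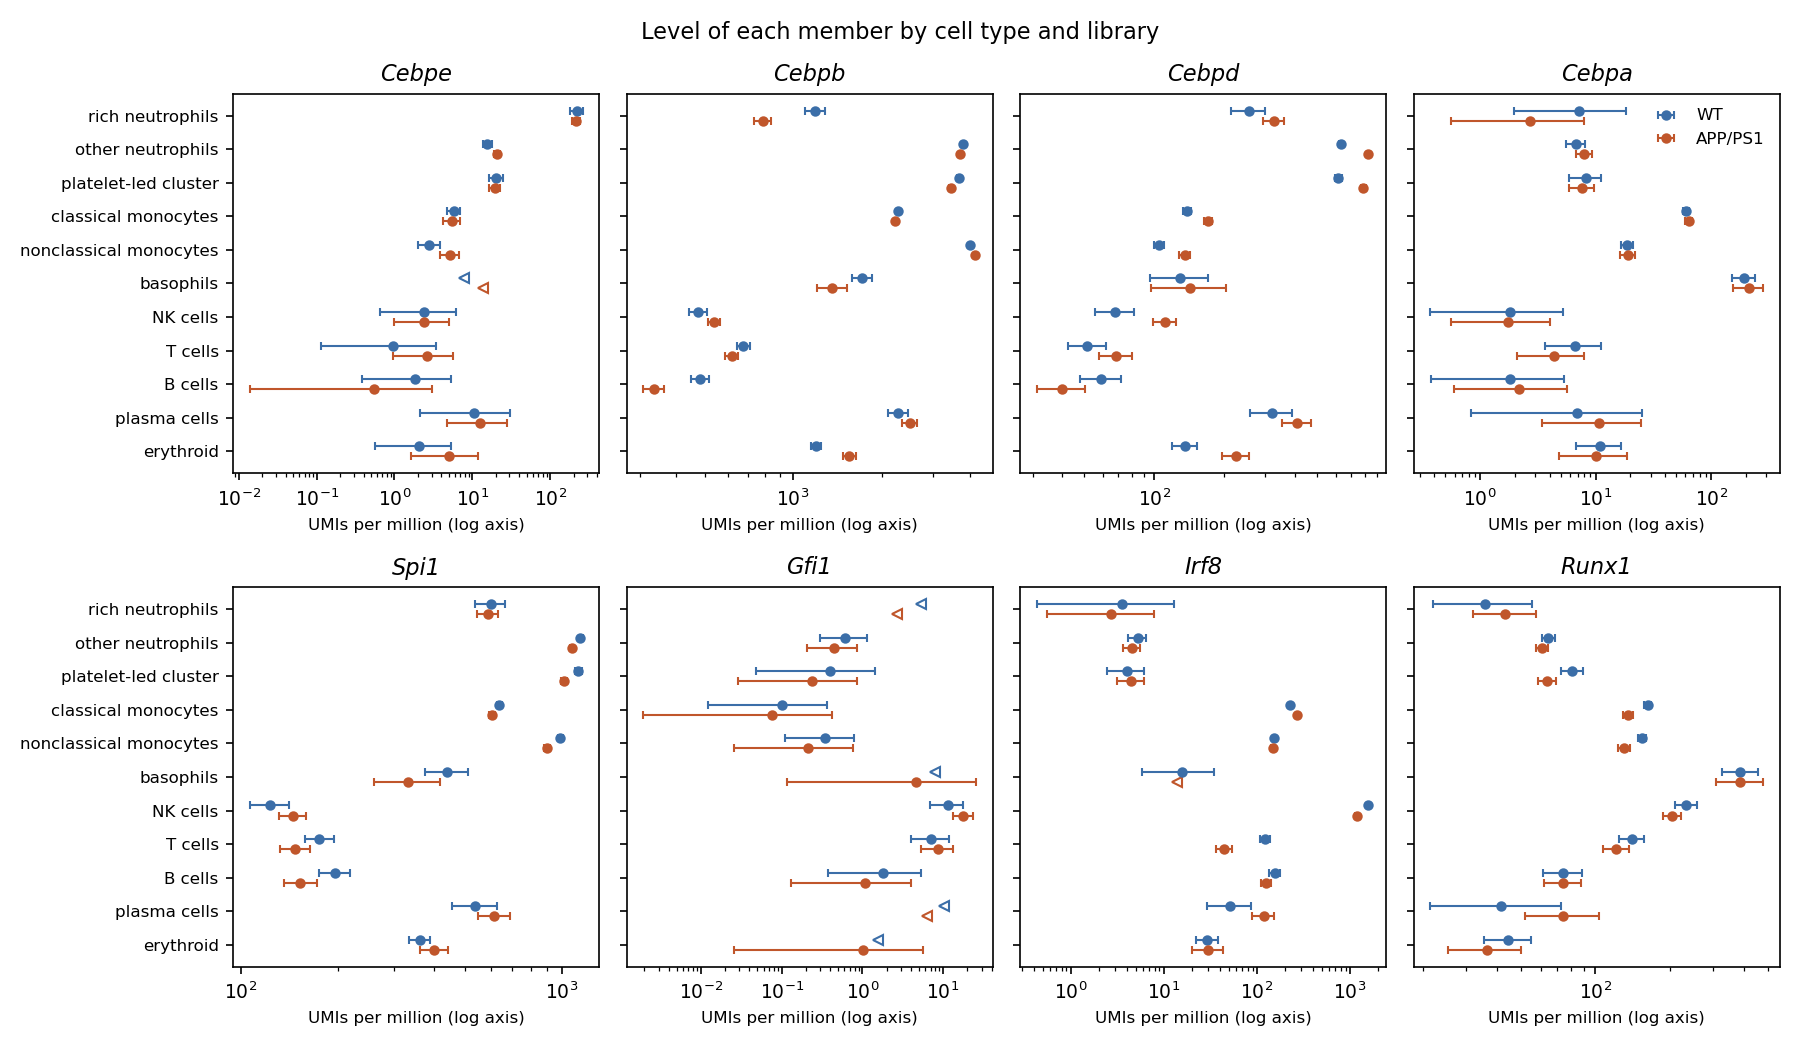
CPM (log axes, each panel with its own range) of the 8 factors in 11 cell groups, in WT (blue) and APP/PS1 (orange), with exact 95% counting intervals as bars and open triangles at the level of 3 counts where no UMI was found. Cebpe is highest in rich neutrophils, Irf8 and Gfi1 in NK cells, and Cebpa and Runx1 in basophils.

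The genes whose levels ran most like each factor were named by Pearson's r of log2(CPM + 10) over 21 groups of a cell type and a library, among genes with at least 500 UMIs. The groups share 2 libraries and differ in depth, so r is a description. The 2 groups of rich neutrophils were made by the Camp, Ngp and Ltf rule. Cebpe stood at 219 and 216 CPM in them and at 20.7 CPM or less in all others. Its r thus rests mainly on these 2 groups and mostly marks genes that are also high there. For Cebpe they were Ncam1, Olfm4 and Gca (each r = 0.978), for Cebpb Lst1, Cd300a and Ftl1 (0.976, 0.966 and 0.965), and for Cebpd Gm34084, Clec4e and Slc7a11 (0.982, 0.979 and 0.974). For Cebpa they were Adora2b, Stx3 and Hsd3b7 (0.922, 0.917 and 0.909), and for Spi1 Nfam1 and Csf2ra (0.971 and 0.969). For Irf8 they were Gm28875, Lrrk1 and Gramd4 (0.925, 0.923 and 0.919), and for Runx1 Padi2, Slc38a10 and Pim3 (0.934, 0.927 and 0.913). Gfi1 had too few UMIs, 145 in all.

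Between the genotypes, no factor differed by more than 0.5 on the log2 scale in the other neutrophils, where 7 of the 8 had at least 50 UMIs and 11.5% of 8833 genes passed this limit. The log2 ratio of APP/PS1 over WT was 0.39 (0.35 to 0.42) for Cebpd and 0.40 (0.17 to 0.63) for Cebpe, and with the platelet-led cluster counted among the neutrophils that of Cebpe was 0.27. Cebpb had -0.04 (-0.05 to -0.02), Spi1 -0.09 (-0.11 to -0.06), Runx1 -0.09 (-0.21 to 0.03), Cebpa 0.23 (-0.13 to 0.59) and Irf8 -0.21 (-0.65 to 0.24). In the platelet-led cluster Cebpd again had 0.36 (0.30 to 0.42), but Cebpe had -0.06 (-0.43 to 0.31).

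Within rich neutrophils, Cebpb had a log2 ratio of -0.59 (-0.74 to -0.44), past the limit that 14.7% of 2930 genes passed there. It was the 1 factor to do so of the 5 with enough UMIs. It was lower in APP/PS1 in each of the 3 steps of granule transcript, at 1425 against 2364 CPM from 20 to 100 per 10000 (17 WT cells), 988 against 1441 CPM from 100 to 500, and 447 against 672 CPM above that, with intervals that did not overlap. With only the mitochondrial limit on cells the log2 ratio was -0.38. The lists of erythroid, T cell, plasma cell and NK cell markers differed between the rich cells of the libraries, as given above. Without neutrophils holding any of the 57 markers of other types the log2 ratio of Cebpb was -0.55, but these hold no haemoglobin gene, and the part of erythroid transcripts was not tested. Cebpe had -0.02 (-0.34 to 0.31), or 0.56 without cells holding markers of other types, Spi1 -0.03 (-0.22 to 0.16), Cebpd 0.35 (0.07 to 0.64) and Runx1 0.27 (-0.51 to 1.10).

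In monocytes 1 factor passed the limit between genotypes. In classical monocytes none passed 0.5 (background 7.57% of 10308 genes), with Cebpd at 0.30 (0.22 to 0.38), Irf8 at 0.23 (0.16 to 0.29) and Runx1 at -0.27 (-0.35 to -0.18). In nonclassical monocytes 1 of the 7 with enough UMIs passed, Cebpe at 0.88 (0.25 to 1.52), from 41 and 48 UMIs (background 7.44% of 9877 genes), and at 1.93 with called doublets removed. Camp, Ngp and Ltf were also higher there in APP/PS1, at 16.5, 18.6 and 13.1 CPM against 4.22, 6.54 and 5.25 CPM, and 13.9% of these cells in WT and 15.4% in APP/PS1 were called doublets. The part of these neutrophil transcripts in the level of Cebpe was not tested. Cebpd had 0.37 (0.26 to 0.48), but 0.53 with cell limits set over both libraries together, 0.17 with only the mitochondrial limit on cells and 0.17 with called doublets removed. Runx1 had -0.24 (-0.34 to -0.14) and Spi1 -0.13 (-0.17 to -0.09) there.

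In lymphocytes, which had fewer UMIs than monocytes, the limit was passed by 2 of the 6 factors with enough UMIs in NK cells. In T cells it was 1 of 5 and in B cells 2 of 5. In NK cells Cebpd (0.71, 0.39 to 1.03) and Gfi1 (0.63, -0.15 to 1.48) passed, beside 9.91% of 7237 genes, and Irf8 had -0.41 (-0.48 to -0.33). With called doublets removed Cebpd had 0.29. In T cells Irf8 passed with -1.47 (-1.82 to -1.14), beside 13% of 7379 genes, and it had -0.79 with only the mitochondrial limit on cells and -1.55 with called doublets removed. Cebpd had 0.41 (0.04 to 0.77) there, and passed the limit at 0.79 with only the mitochondrial limit on cells, 0.86 with cell limits set over both libraries and 1.74 with called doublets removed. Most of the Irf8 UMIs in T cells lay in few cells. A subcluster led by Ccl5, Cd8b1 and Nkg7, with 42 WT and 30 APP/PS1 cells, held 77.3% and 73.5% of them, at 527 CPM (456 to 605) and 342 CPM (269 to 429). Cells called doublets held 69.6% and 76.5% of them. The log2 ratio of -1.55 above is from cells clustered anew without doublets, a different set of T cells. In T cells of the main clustering not called doublets, Irf8 stood at 54.3 CPM (43.0 to 67.7) in WT and 12.6 CPM (8.10 to 18.8) in APP/PS1. Outside the subcluster it stood at 34.1 CPM (26.0 to 44.0) in WT and 12.99 CPM (8.56 to 18.9) in APP/PS1. In B cells Cebpb (-0.53, -0.68 to -0.37) and Cebpd (-0.57, -1.03 to -0.11) passed, beside 14.5% of 6292 genes, and S100a9 ran the same way there, at 6710 CPM (WT) against 3367 CPM (APP/PS1). With called doublets removed the log2 ratios there were -0.06 for Cebpb and -0.16 for Cebpd, and they also fell short of the limit with only the mitochondrial limit on cells (-0.18 and -0.12) and with cell limits set over both libraries (-0.35 and -0.30). The part of free neutrophil RNA in these ratios was not tested. In basophils, plasma cells and erythroid cells the share of all genes past the limit was not counted. Past 0.5 there were Irf8 in plasma cells at 1.19 (0.35 to 2.12), from 15 and 56 UMIs, and Cebpd in erythroid cells at 0.73 (0.47 to 0.997). Both groups held many called doublets, as given above, whose part was not tested.

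**Figure D4:**
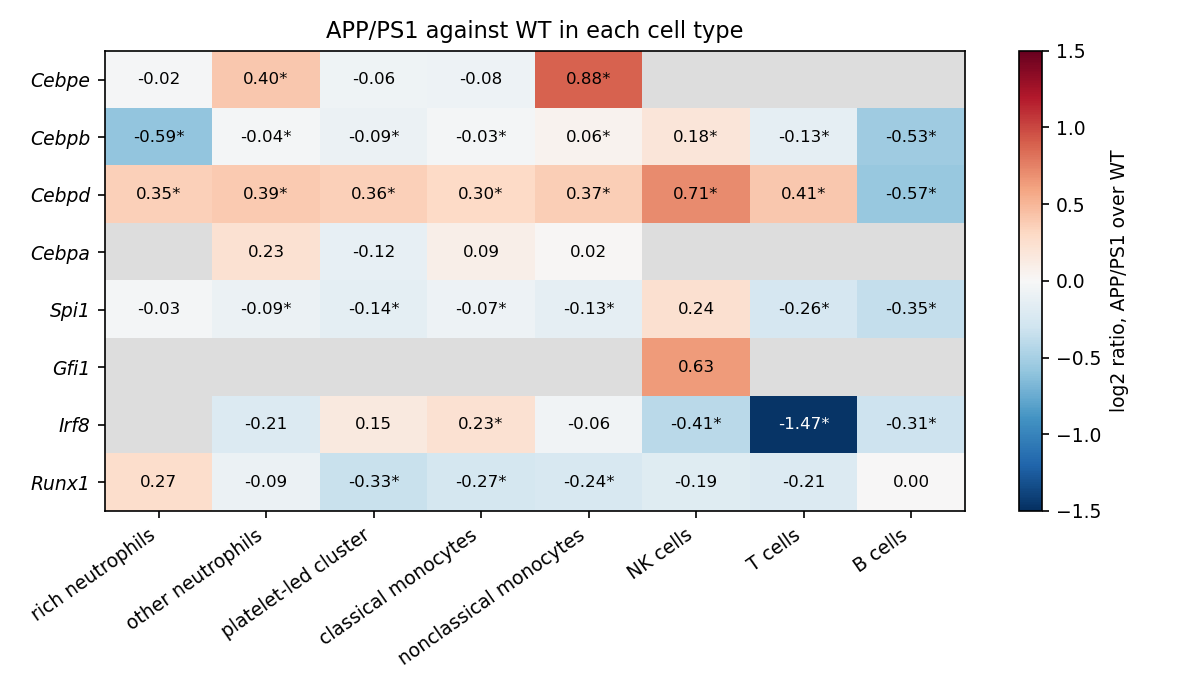
Log2 ratio of CPM, APP/PS1 over WT, for the 8 factors (rows) in 8 cell groups (columns), with red for higher and blue for lower in APP/PS1, an asterisk where the exact 95% counting interval leaves out 0 and grey where the 2 libraries together had under 50 UMIs. Among the groups shown, Cebpd is at 0.30 to 0.71 in all but B cells, and Irf8 in T cells is the lowest value, -1.47. Basophils, plasma cells and erythroid cells are not shown.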

How the data were processed

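The deposited values were raw counts of UMIs, with no normalization. Per the submitters' processing notes the authors used Cell Ranger 5.0.0 and mm10, on libraries of the 10x Genomics v3 kit. The 8 genes and all gene lists were chosen with earlier results of these data known. After the study's filter, a cell was kept if its genes and its UMIs both lay between percentiles 5 and 95 of the library and at most 10% of its UMIs were mitochondrial. Kept cells were clustered with Seurat 5.3.0 (R 4.3.3; 2000 variable features without the 8 factors, 15 principal components, resolution 0.2), and named by at least 3 listed markers at a log2 ratio of 1 or more. The monocyte markers were split into classical and nonclassical, and the platelet-led cluster set apart, after the clusters were seen. A platelet cluster of 32 cells was left out. Cells called doublets by Scrublet (scanpy 1.11.5) stayed in and were removed in an alternative, where the remaining cells were clustered anew. In APP/PS1 its own threshold, 0.728, called no cell, so that of WT, 0.217, was used, which called 9.04% and 7.29%.

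UMIs were summed per class and library and divided by all UMIs (CPM). Levels have exact Poisson intervals, ratios exact conditional and shares exact Clopper-Pearson intervals. A count of 0 allows 3 counts. For shares each cell was thinned to 1000 UMIs. Ratios were compared with all genes of at least 50 UMIs, past a log2 ratio of 1 (rich against other) or 0.5 (genotype). The interval script was tested on simulated counts. The 8 factors, up to 4 genes of each list (the 2 highest and the 2 lowest mean ratios) and the 3 most alike genes were named, of which 1 is not reported here. Alternatives were other cell limits, doublet removal, other clusterings, limits of the class, gates, thinning, totals without abundant genes, and edgeR 4.0.16 TMM.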

Additional observations from a re-analysis of the deposited data

Results flagged for a closer look

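Cebpd ran opposite ways in NK cells and B cells, with log2 ratios of APP/PS1 over WT of 0.71 (0.39 to 1.03) and -0.57 (-1.03 to -0.11). It was picked out because both ratios passed 0.5 in size and both counting intervals leave out 0. The difference between the cell types was not tested. Other factors also ran opposite ways with intervals clear of 0, but without both ratios past 0.5. Irf8 had 0.23 in classical monocytes and -0.41 in NK cells, and Cebpb 0.18 in NK cells and -0.53 in B cells. The result for Cebpd rests on 113 and 319 UMIs in NK cells and 97 and 73 UMIs in B cells. With called doublets removed the log2 ratios of Cebpd were 0.29 and -0.16. S100a9 stood at 10060 CPM (WT) and 9305 CPM (APP/PS1) in NK cells and at 6710 and 3367 CPM in B cells. For each 10000 UMIs of S100a9, Cebpd had 67.3 and 119 UMIs in NK cells and 88.1 and 119 in B cells. Other neutrophils had 67.0 and 105. By this measure Cebpd was higher in APP/PS1 in both lymphocyte types, and near its ratio in neutrophils, so it was not read as expressed in them. The part of doublets and free RNA in the ratios of Cebpd was not tested.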

How the results depend on the processing

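The direction of the CPM ratio of Cebpe, Cebpb, Cebpd, Spi1 and Runx1 between rich and other neutrophils was the same in both libraries under all 14 alternatives (UMIs per cell, where Spi1 and Runx1 turned, were not among them), while Cebpa in WT and Irf8 in both libraries, with 2 to 4 UMIs in rich cells, turned under some. The log2 ratio of Cebpe lay between 3.21 (neutrophils gated as cells with at least 3% S100a8 and S100a9 UMIs and no UMI of other markers) and 4.26 (totals without abundant genes) in WT and between 3.25 and 3.85 in APP/PS1. Leaving out cells with other markers gave 3.23 in WT, and cells of 5000 to 10000 UMIs, 3.67 in APP/PS1. That alternative, and the one that counts the platelet-led cluster as neutrophils, were chosen after seeing the data. Without abundant genes the level of Cebpe in rich cells was 358 CPM (WT) and 344 CPM (APP/PS1). The log2 ratio of Cebpb in WT was -1.52, -1.95 and -1.99 with the class limit at 10, 50 and 100 per 10000, -1.55 with the mitochondrial limit only, -1.54 without cells holding other markers, -1.498 by the gate, -1.22 without abundant genes, -1.49 thinned and -1.87 in cells of 5000 to 10000 UMIs. In APP/PS1 it was -2.12, -2.39 and -2.47 at those limits, -1.88 with the mitochondrial limit only, -2.06 without cells holding other markers, -1.97 by the gate, -1.77 without abundant genes and -2.07 by TMM. Factors past a log2 ratio of 1 in size in WT numbered 3, but 6 at limits of 50 and 100 and 5 in cells of 5000 to 10000 UMIs. The share of all genes was not counted under these settings, so these counts have no background beside them. At 50 the 6 included Spi1 at -1.01, Cebpa at -1.74 and Irf8 at -1.345. Cebpa and Irf8 had only 4 and 2 UMIs in all rich cells of WT. The share of all genes above 1 in WT was 5.91% with at least 200 UMIs and 19.7% with 1 UMI in each class, against 9.34%, and in APP/PS1 20.8% in the latter, against 9.69%. The share past 0.5 between genotypes in other neutrophils was 6.52% and 27.2% under these, against 11.5%. No factor passed 0.5 there under any of the 8 alternatives. Unthinned, Cebpe was seen in 57.1% and 58.1% of rich cells, against 19.0% and 19.2%. Thinning takes UMIs out of cells, and leaving out abundant genes makes the totals smaller, so the shares of cells and the CPM under these settings move by construction. The cause of the other differences was not tested.

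No paired analysis was possible because each genotype has 1 library, and for the same reason leaving out a library gives no value. Depth limits Gfi1, Cebpa and Irf8 in the 84 and 167 rich cells. Levels were recomputed for each factor's highest cell type and the rich neutrophils.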

Other observations

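At a finer resolution (0.5), Cebpe also varied among neutrophils outside the granule-rich cells. It stood at 13.6 CPM (11.5 to 16.1) in WT and 14.96 CPM (12.5 to 17.8) in APP/PS1 in the subcluster led by Retnlg, and at 16.4 CPM (12.1 to 21.9) and 22.0 CPM (18.2 to 26.2) in the subcluster led by the interferon genes Ifit3b, Ifit3 and Ifit1. In the subcluster led by Csf1, Clec4n and Egr2 it stood at 24.6 CPM (17.9 to 33.0) and 30.7 CPM (25.4 to 36.9), above the first in both libraries with intervals that did not overlap. The subcluster led by Camp, Ngp and Ltf had 160 CPM (133 to 190.2) and 184 CPM (161 to 208). Cebpb was highest in the same subcluster led by Csf1, at 4299 CPM (4204 to 4397) and 4171 CPM (4106 to 4237), while Cebpd stood at 624 to 647 CPM in WT and 817 to 860 CPM in APP/PS1 in the subclusters led by Retnlg, Ifit3b and Csf1. In the subcluster led by Camp, Ngp and Ltf it stood lower, at 322 CPM (283 to 364) and 348 CPM (317 to 381). The clusters were drawn without the 8 factors among the features.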
